A study of Capra hircus with 4 samples.

Results

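Intergenic long non-coding RNAs (lncRNAs) of goat endometrium whose listed locus measured 20 kb or more are described here. They were taken from a deposited table of assembled lncRNAs as the transcripts of class u, the code for a transcript assembled in an intergenic position, whose locus end minus locus start was at least 20000 bp. The rule used the class code and the locus, and no expression value. It found 4734 transcripts of 226416 in the table, or 2.13% of the 222573 transcripts of class u. The other 217839 transcripts of class u had a shorter locus and serve for comparison.

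The study sampled endometrium, the lining of the uterus, of Xinong Saanen dairy goats. There were 2 libraries of gestational day 5 (pre-receptive) and 2 of gestational day 15 (receptive). All goats were multiparous, 24 months old and brought into synchronized estrus, and they were mated naturally. The labels count 20 goats, 10 for each stage, without saying whether a library holds 1 goat or several. RNA was depleted of ribosomal RNA and sequenced from both ends in strand-specific libraries. The authors' comparison sets libraries called T against libraries called C. No label ties either letter to a stage, so directions are given as T against C. Expression columns, named for single libraries or for the sets T and C, match no sample label and were not used after the files were first read. No level, no value per library and no error between libraries is therefore given. The tables used hold no marker genes, so the labelled tissue was not checked against its markers.

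Long intergenic lncRNAs are transcribed from sequence between protein-coding genes. Some act in cis, on genes of the same chromosomal neighbourhood, and others act in trans, as scaffolds or decoys for proteins or microRNAs. Many are spliced from exons that lie far apart, so a locus can be much longer than the mature RNA. Endometrium changes from a non-receptive to a receptive state under progesterone before an embryo attaches, and non-coding RNAs are among the transcripts studied in that change.

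For most of these transcripts the listed locus was an interval shared with other transcripts, so that it need not be the extent of the transcript itself. The 4734 transcripts carried 4538 gene identifiers but lay in only 1802 distinct loci. At 3975 of them (84.0%) the same start and end were also listed for another gene identifier of the table. Among shorter class u transcripts this was so for 59234 (27.2%). An interval listed for several transcripts may be long because it spans them all, so the 2 shares are not independent of the length rule. Distinct loci of the whole table hardly overlapped, since 13 of 191319 overlapped an earlier locus on the chromosome. The length of 20 kb or more is that of the listed interval, and the transcripts are called long-locus transcripts below. The transcripts' own starts, ends and exons were not analysed here.

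Locus lengths ran from 20008 to 1691343 bp. The median over transcripts was 53804 bp and the quartiles were 32828 and 95000 bp, against a median of 1391 bp for shorter class u transcripts. Just inside the threshold were TCONS_00057703 on chromosome 11 (20008 bp), TCONS_00245739 on chromosome 22 (20021 bp) and TCONS_00373450 on chromosome 5 (20024 bp). Just outside it were TCONS_00176482 on chromosome 18 (19981 bp) and the pair TCONS_00214585 and TCONS_00214587 on chromosome 20, which share a locus of 19960 bp. Lengths thus ran on without a gap across the threshold.

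The longest locus belonged to a single transcript. TCONS_00365014 was listed at 106393448 to 108084791 on chromosome 4, an interval of 1.69 Mb. TCONS_00114532 followed on chromosome 14, at 61291028 to 62669531 (1.38 Mb), also as the only transcript of its locus in the table. The next 4 transcripts by length, TCONS_00083582, TCONS_00083583, TCONS_00083584 and TCONS_00083586, have 4 different gene identifiers and 1 common interval on chromosome 13, 399840 to 1293272. TCONS_00302641 on chromosome 27 (42098591 to 42970704) shared its interval with an antisense exonic transcript of ZNF385D, a zinc finger protein gene. TCONS_00097166 on chromosome 13 and TCONS_00005518 on chromosome 1 were each the only lncRNA of loci of 836568 and 784217 bp. TCONS_00149676 was listed with 2 other transcripts in a locus of 773655 bp on chromosome 17. Of these 10 transcripts, 0 were in the authors' differential list, which held 0.295% of all transcripts of the table.

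The most crowded locus lay on chromosome 8, at 40654306 to 40812401, with 34 long-locus transcripts of 29 gene identifiers. A locus on chromosome 4, at 92153857 to 92328120, held 32 of 28 gene identifiers, together with 5 transcripts of the other classes that the table assigns to LOC102185246. The third lay on chromosome 20, at 21364875 to 21485464, with 23 transcripts of 16 gene identifiers. Such crowding was not the rule. A long locus held a median of 2 class u transcripts and a mean of 2.63, and 834 of the 1802 loci (46.3%) held 1. Among shorter loci, 84.8% held 1.

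Several of the long intervals were also the intervals of annotated genes. The table's other classes (x for antisense exonic, j for a shared splice junction and o for exonic overlap) had 317 transcripts at 194 of the 1802 long loci, 189 of class x, 101 of class j and 27 of class o. These 194 loci were 10.8% of the long loci, against 0.0567% of the shorter class u loci. They held 541 of the 4734 long-locus transcripts. The classes x, j and o named 204 genes there, of which 173 were matched by name in the RefSeq table of the ARS1.2 goat assembly. Of the matched genes, 129 were protein-coding, 27 were lncRNA genes, 15 were pseudogenes and 2 were transcribed pseudogenes.

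The authors' table of predicted cis targets gave a second view of the same sharing. It listed target transcripts at 181 distinct loci of 20 kb or more, and 36 of these (19.9%) were letter for letter the locus of a long-locus lncRNA. For target loci under 20 kb, 11 of 170 (6.47%) equalled the locus of a shorter class u lncRNA. The 36 loci held target transcripts of 43 genes, among them PTPN11, which encodes the phosphatase SHP2, DOCK5 and DOCK8, which encode guanine nucleotide exchange factors, and CTGF, which encodes a matricellular growth factor. These genes are examples chosen after their names were seen. Targets were listed for called lncRNAs alone, so genes at the other long loci are not covered by this count. The called lncRNA of a target need not be the long-locus transcript with the same interval. A called long-locus transcript shared its interval with its own predicted target for 6 genes, at 4 such transcripts. PTPN11, DOCK5, DOCK8 and CTGF were not among the 13 genes predicted as targets of called long-locus transcripts.

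Shared loci were commoner among longer loci over the class u transcripts as a whole. A locus common to another gene identifier was listed for 5.13% of transcripts with a locus under 1 kb, 23.6% at 1 to 2 kb, 53.9% at 2 to 5 kb, 64.9% at 5 to 10 kb and 74.0% at 10 to 20 kb. It was listed for 82.0% at 20 to 50 kb, 86.6% at 50 to 100 kb and 84.4% at 100 kb or more. A longer interval has room for more transcripts, and an interval listed for several transcripts may be longer because it spans them all. Sharing and listed length are therefore not independent, and the part of either in the shares was not tested.

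**Figure D1:**
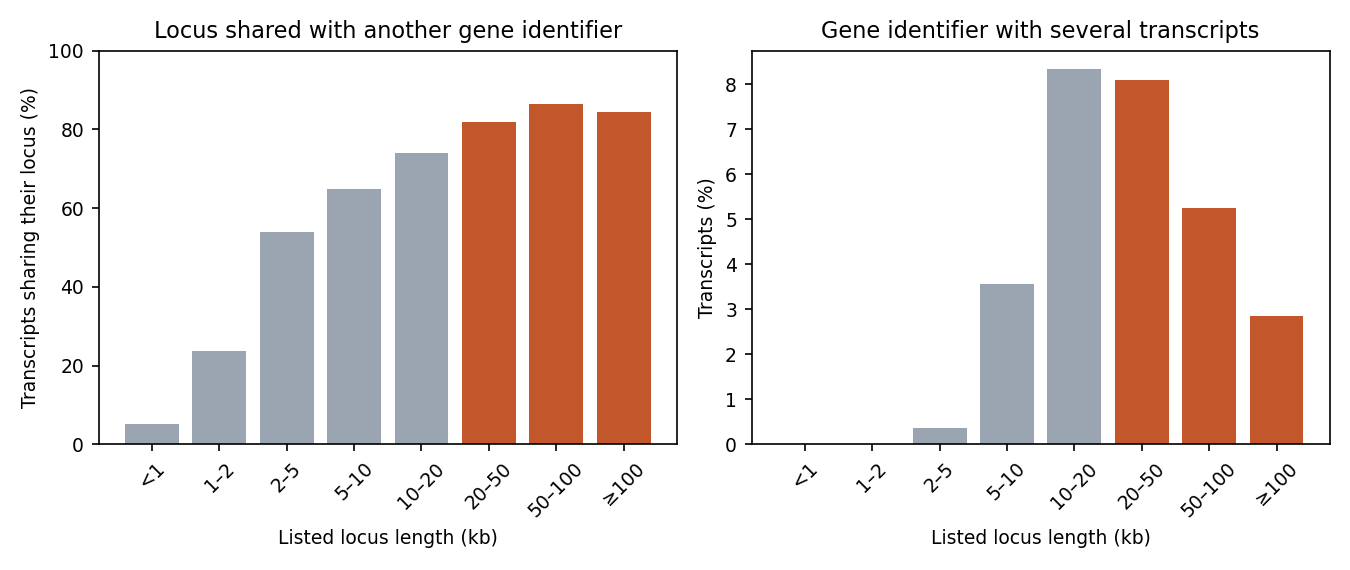
Class u transcripts by listed locus length in kb, with long loci in orange and shorter ones in grey. The left bars give the percent of transcripts whose locus is also listed for another gene identifier, from 5.13% under 1 kb to 84.4% at 100 kb or more, and the right bars give the percent whose gene identifier has several transcripts, highest at 8.33% for 10 to 20 kb.

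Gene identifiers with several transcripts, which mark assembled genes with more than 1 isoform, were commoner among long loci. They made up 87 of 4538 identifiers (1.92%), against 200 of 217537 (0.0919%) at shorter loci. By length, the share of transcripts from such identifiers was 0.357% at 2 to 5 kb, 3.56% at 5 to 10 kb and 8.33% at 10 to 20 kb. It was 8.11% at 20 to 50 kb, 5.25% at 50 to 100 kb and 2.86% at 100 kb or more. The middle lengths thus had the highest share, not the longest loci. The identifiers with the most transcripts were XLOC_323106 on chromosome 5 (22981829 to 23029460) and XLOC_408275 on chromosome 9 (25997958 to 26051762), with 9 each, followed by XLOC_195534 with 8, in the crowded locus on chromosome 20. None of their transcripts was in the authors' differential list, which held 0.295% of all transcripts of the table.

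The medians of coding potential were close at long and shorter loci. The median CPC score, the authors' deposited value from a coding potential classifier in which negative means non-coding, was -1.13 for long-locus and -1.13 for shorter transcripts. The median CNCI score, a second such score, was -0.0299 and -0.0328. Both scores are below 0 throughout the table and may have been used to filter it.

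Long-locus transcripts lay on 30 chromosomes, X among them, and the single class u transcript listed for the mitochondrial genome had a shorter locus. Chromosome 19 had the highest share, with 139 of 3387 class u transcripts (4.10%, 95% Wilson interval 3.49 to 4.83). Chromosome 22 had 140 of 4533 (3.09%, interval 2.62 to 3.63) and chromosome 13 had 188 of 6202 (3.03%, interval 2.63 to 3.49). The lowest shares were on chromosome 12, with 103 of 7783 (1.32%, interval 1.09 to 1.60), on X, with 160 of 12028 (1.33%, interval 1.14 to 1.55), and on chromosome 6, with 145 of 10462 (1.39%, interval 1.18 to 1.63). The interval of chromosome 19 overlapped that of chromosome 22 and just met that of chromosome 13. Chromosomes 22 and 13 did not differ beyond their intervals, nor did chromosomes 12, X and 6. Intervals cover counting error, and they are too narrow because transcripts of a locus are counted separately.

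Chromosome 19 had few shorter transcripts per Mb, but it also had more long loci per Mb than the 0.714 of all chromosomes together. The part of each in its high share was not tested. Chromosome 19 had 54.5 class u transcripts per Mb of covered positions, the lowest value of the 30 chromosomes. It had 2.24 long-locus transcripts per Mb, which was not the highest. Per Mb, chromosome 21 was highest with 2.58 and chromosome 12 lowest with 1.25. The number per Mb differed 2.06-fold between the extremes, against 3.10-fold for the share. Across the 30 chromosomes, the share and the density of class u transcripts had a Spearman correlation of -0.63, or -0.59 without chromosome 19. This describes the chromosomes, whose share has the number of class u transcripts as its denominator.

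**Figure D2:**
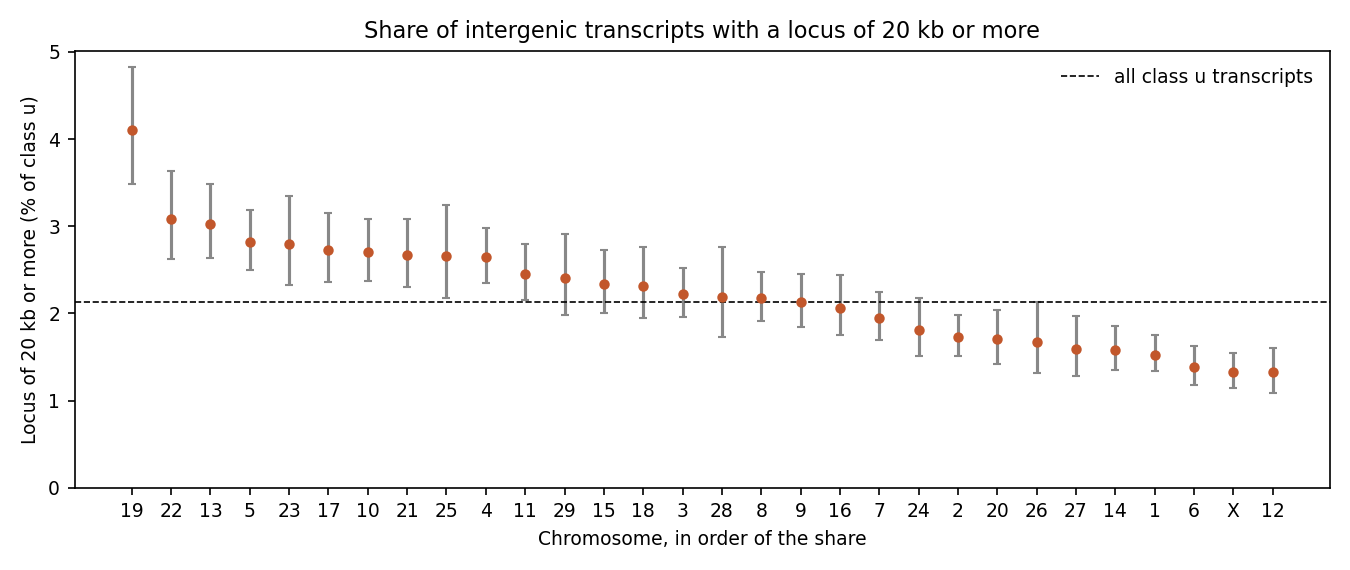
Percent of class u transcripts with a locus of 20 kb or more on each chromosome, in order of the share. Points are shares, bars are 95% Wilson intervals and the dashed line is the share of all class u transcripts (2.13%), with chromosome 19 highest at 4.10% and chromosome 12 lowest at 1.32%.

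Counted as loci, long loci were spread thinly. The 1802 loci summed to 148.963 Mb, or 5.90% of the 2524 Mb between the first and last listed positions of the chromosomes. The shares of the chromosomes ran from 3.92% of X to 9.11% of chromosome 13. There were 0.714 long loci and 74.0 shorter class u loci per Mb. In windows of 1 Mb, 1138 of 2540 (44.8%) held the midpoint of at least 1 long locus, and 17.5% held at least 2. Shorter class u loci were found in 2523 of the windows (99.3%). The 4 fullest windows held 6 long loci each, at 9 to 10 Mb on chromosome 29, 46 to 47 Mb and 59 to 60 Mb on chromosome 18, and 31 to 32 Mb on chromosome 9. In that order they held 94, 52, 77 and 100 shorter loci, against a median of 72 over all windows.

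The numbers of long and shorter loci per window were weakly and negatively related. Over the 2540 windows, the numbers of long and shorter class u loci had a Spearman correlation of -0.19 and a Pearson correlation of -0.18. Listed loci hardly overlapped, so a window taken up by a long locus has less room for shorter ones. The part of this in the correlations was not tested. Windows are also neighbours on a chromosome and share its sequence, so these values only describe the table. The ends of the chromosomes, 10% of the covered positions at each end, held 20.9% of long and 19.8% of shorter loci. Successive long loci were a median of 633 kb apart. The widest stretch without one was 16.4 Mb, on chromosome 2 from 71943197 to 88355290.

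The comparison of T with C asks which lncRNAs differ between the stages. Of the 4734 long-locus transcripts, 14 were in the authors' deposited list of differential lncRNAs. This is 0.296%, against 0.295% of all transcripts of the table. Per transcript the share is near that background, which counts every transcript of the table, because the number that the authors tested is not known here. Counted per locus, with overlapping intervals merged, 13 of 1802 long loci held a listed transcript (0.721%, Wilson interval 0.422 to 1.23), against 664 of 191306 loci of the whole table (0.347%). Long loci hold more transcripts each, and the part of this in the share per locus was not tested. Of the shorter class u transcripts, 643 were listed (0.295%). The authors' deposited table gave the 14 a p from 0.0004 to 0.0495. Their q, the p adjusted for multiple testing, ran from 0.165 to 0.894 by the authors' deposited table. Of the 14, 0 had a q under 0.05, which 12 of all transcripts had (0.0053%). The 14 are therefore listed by an unadjusted p, and their changes have no error between libraries here.

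Of the 14, most were lower in T, and 13 had a finite change. There were 4 higher in T (0.0845% of long-locus transcripts, against 0.177% of all transcripts) and 10 lower (0.211%, against 0.118%). Among listed shorter transcripts, 393 were higher and 250 lower. An infinite change, which means that either set is listed at 0, was given for 1 of the 14 and for 382 of the 643 shorter ones. Where the change was finite, the authors' deposited table gave the 4 higher ones a median log2 change of 3.38 and the 9 lower ones a median of -1.73. The medians of shorter transcripts were 2.79 (40 transcripts) and -1.94 (221) in the authors' deposited table. Among finite changes alone, 9 of 13 long-locus transcripts were lower in T (69.2%, Wilson interval 42.4 to 87.3), against 221 of 261 shorter ones (84.7%, interval 79.8 to 88.5). The order of long and shorter transcripts thus turned when infinite changes were left out. No test was made of these differences.

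Listing varied with locus length in a way that the overall share hides. Of class u transcripts with a locus under 1 kb, 287 were listed (0.582%), 249 higher and 38 lower in T, and 272 of these 287 had an infinite change. At 1 to 2 kb the share was 0.110%, at 2 to 5 kb it was 0.289%. At 5 to 10 kb 65 transcripts were listed (1.68%, Wilson interval 1.32 to 2.13), and at 10 to 20 kb 28 were (1.34%, interval 0.929 to 1.93). Of these 93 transcripts, 8 were higher in T and 85 lower.

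Within the long loci the share was lower again at greater lengths. At 20 to 50 kb 12 of 2146 transcripts were listed (0.559%, interval 0.320 to 0.975), 3 higher and 9 lower in T. At 50 to 100 kb 0 of 1468 were listed, which allows a share of up to 0.204% by the limit of 3 counts and up to 0.261% by the Wilson interval. At 100 kb or more 2 of 1120 were listed (0.179%, interval 0.0490 to 0.649). The share of 0.296% thus joins a range of loci above the share of the whole table and a range below it. With a minimum length of 10 kb the share was 0.616%, and with 50 kb it was 0.0773%.

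**Figure D3:**
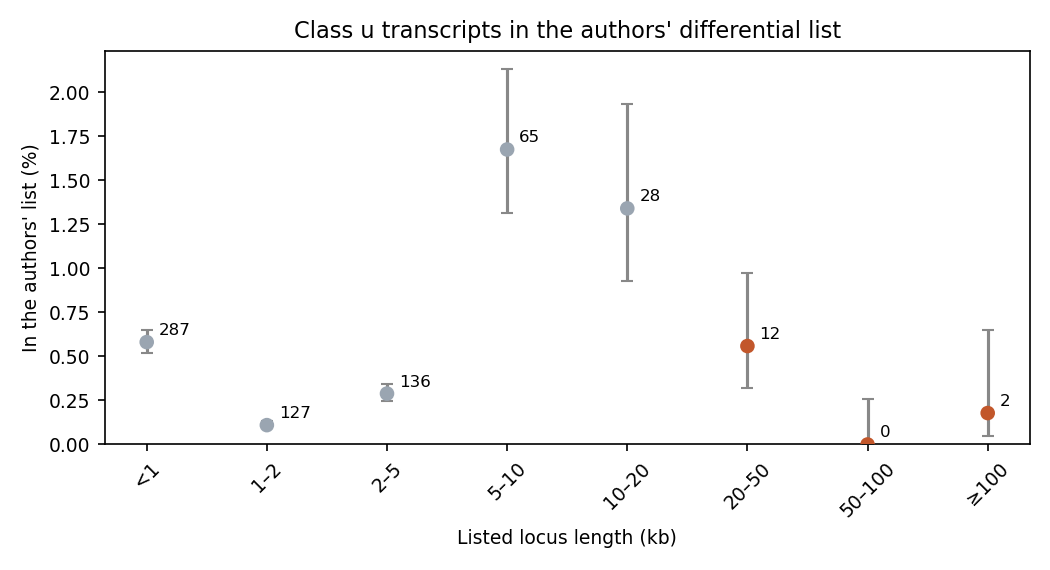
Percent of class u transcripts in the authors' differential list by listed locus length in kb, with 95% Wilson intervals and the number listed beside each point (long loci in orange). The share is highest at 5 to 10 kb (1.68%) and 10 to 20 kb (1.34%), then 0.559% at 20 to 50 kb and 0 of 1468 at 50 to 100 kb.

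Listed long-locus transcripts often came from gene identifiers with several transcripts. These identifiers gave 6 of the 14 listed transcripts but 283 of the 4734 long-locus transcripts (5.98%). Their listed share was 2.12% (6 of 283, interval 0.975 to 4.55), against 0.180% (8 of 4451, interval 0.0911 to 0.354) for identifiers with 1 transcript. At shorter loci it was 1.59% (8 of 502, interval 0.810 to 3.11) against 0.292% (635 of 217337). The difference ran the same way at both lengths. Of the 502, however, 138 lay at 5 to 10 kb and 174 at 10 to 20 kb. At these lengths 1.68% and 1.34% of class u transcripts were listed. The part of locus length in either difference was not tested. The 6 come from 5 identifiers, so they are not independent.

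Higher in T were 4 transcripts, 2 of which share a gene identifier. For TCONS_00362370 of XLOC_317910, on chromosome 4 at 75431108 to 75472460, the authors' deposited table gave a log2 change of 3.53, which is 11.5-fold. Its p of 0.0004 (q of 0.165) was the smallest of the 14 in the authors' deposited table. TCONS_00362369, the other transcript of that identifier, had a log2 change of 3.23 (9.39-fold) and a q of 0.786 there, again from the authors' deposited table. Both isoforms were thus listed several-fold higher in T, and the third transcript of the locus, of another identifier, was not listed. Each of the pair had 5 other listed lncRNAs within 100 kb, its partner among them, and all 5 were higher in T. The pair share a locus, so apart from each other their neighbours are the same. Of all 668 listed lncRNAs, 401 (60.0%) were higher in T, and the matching share with listed neighbours is not given here.

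The other higher transcripts lay in the intervals of protein-coding genes. TCONS_00422070 was placed at 16587868 to 16628220 on chromosome 7, the interval also given for ZFR2, a gene for a zinc finger RNA binding protein. The authors' deposited table gave it a log2 change of 3.56 (11.8-fold), the largest finite rise of the 4, with a p of 0.04745 and a q of 0.894. TCONS_00035895 was placed at 72161622 to 72468820 on chromosome 10, the interval of SYNE2, which encodes nesprin-2, a protein that links the nucleus to the cytoskeleton. Its log2 change of 0.20 (1.15-fold) was the smallest of the 14 in the authors' deposited table, yet it was listed, with a p of 0.033 and a q of 0.793.

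Lower in T were 10 transcripts, 2 of them on chromosome 29, neither with a predicted target. The authors' deposited table gave TCONS_00311100 (9539384 to 9572249) a log2 change of -1.73, or 3.32-fold lower, and a q of 0.551. It gave TCONS_00311215 (10295338 to 10330140), of an identifier with 3 transcripts, a log2 change of -2.46, or 5.51-fold lower, and a q of 0.598, also in the authors' deposited table. Each had 4 other listed lncRNAs within 100 kb, and all of these were lower in T. Of the 14, 8 had another listed lncRNA within 100 kb, and the matching share over all listed lncRNAs is not given here. Lower changes also made up 84.7% of the finite changes of listed shorter transcripts.

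The 2 lower transcripts of smallest p had no predicted target. For TCONS_00164507 on chromosome 18 (19443932 to 19465715), the authors' deposited table gave a log2 change of -2.89 (7.43-fold lower), a p of 0.0041 and a q of 0.440. For TCONS_00264795 on chromosome 24 (25977054 to 26005285), the authors' deposited table gave a log2 change of -3.36 (10.3-fold lower), a p of 0.0052 and a q of 0.457. Both came from identifiers with several transcripts, 2 and 5, of which no other was listed.

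A further 3 lower transcripts had smaller changes. TCONS_00461234 on chromosome 9 (81646481 to 81668889) was the only lncRNA of its locus, and the authors' deposited table gave it a log2 change of -1.60 and a q of 0.672. TCONS_00070519 on chromosome 12 (25558553 to 25585116), also alone in its locus, had a log2 change of -1.40 and a q of 0.769 by the authors' deposited table. TCONS_00309058 on chromosome 28 (31031058 to 31051801) had a log2 change of -1.65 and a q of 0.768 by the authors' deposited table. The 3 had 1 to 3 other listed lncRNAs within 100 kb, all lower in T. Among finite changes of listed shorter transcripts 84.7% were lower in T, and the matching share with listed neighbours is not given here.

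For 2 lower transcripts the deposited change does not give a usable size. TCONS_00214779 on chromosome 20 (10410964 to 10447806) was listed at 0 in T, and the authors' deposited table gave it a p of 0.0495 and a q of 0.894. TCONS_00057616 on chromosome 11 (103305405 to 103330786) had a log2 change of -13.46, a p of 0.03675 and a q of 0.831 by the authors' deposited table. The next lower finite change of the 14 was -3.36, so this value stands far from the others, and the level in T behind it was not used here. Its gene identifier has 4 transcripts, of which no other was listed.

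TCONS_00190636 on chromosome 2 (26196003 to 26378163) shared its interval with LRP2, which encodes the endocytic receptor megalin. The authors' deposited table gave it a log2 change of -0.91 (1.87-fold lower), a p of 0.03995 and a q of 0.867. Of the 14 transcripts, 11 lay in loci with several gene identifiers and 3 in loci with 1. The 13 loci of the 14 listed transcripts held 45 long-locus transcripts in all.

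**Figure D4:**
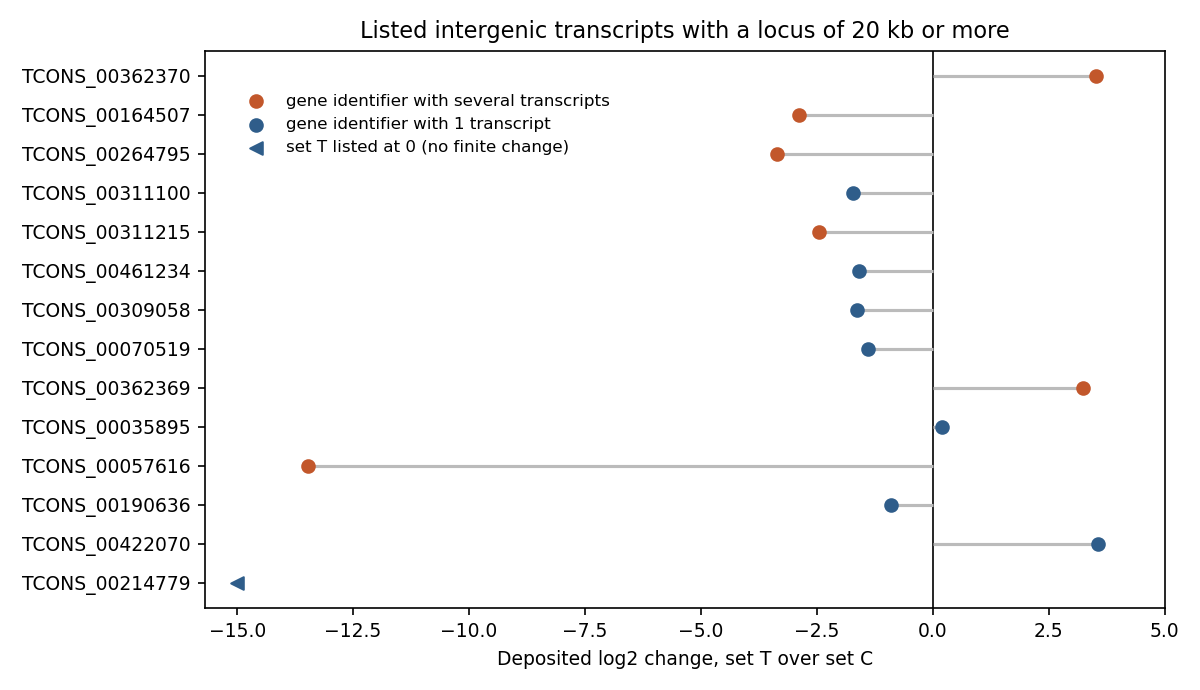
Log2 change of set T over set C in the authors' deposited table for the 14 listed long-locus transcripts, in order of the authors' p from the top, with no error between libraries. The 4 higher transcripts lie right of 0, TCONS_00057616 stands apart at -13.46, and the triangle marks TCONS_00214779, listed at 0 in T. Orange points come from gene identifiers with several transcripts and blue points from identifiers with 1.

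The second comparison asks whether listed lncRNAs and the genes near them differ together. The authors predicted a cis target for 6 of the 14 (42.9%, Wilson interval 21.4 to 67.4), against 238 of 643 listed shorter transcripts (37.0%, interval 33.4 to 40.8). The intervals overlap. The 6 had 32 target transcripts of 13 genes. For 4 of the 6, in 19 of the 32 pairs, the target had the very interval of the lncRNA, so that a distance between the lncRNA and its target cannot be had from the listed positions.

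The target transcripts within a shared interval had no p under 0.05. TCONS_00035895 was paired with 8 transcripts of SYNE2, 2 higher and 6 lower in T, and with 2 of LOC102175304, and the authors' deposited table gave all of them a p of 1. TCONS_00190636 was paired with 2 transcripts of LRP2, both lower in T with a p of 1 by the authors' deposited table, and with LOC102190081, 52005 bp away. TCONS_00422070 was paired with 1 transcript of ZFR2, lower in T with a p of 1 by the authors' deposited table. Its other target was ATCAY, which encodes the neuronal protein caytaxin, 37106 bp away. A p of 1 is not explained by the headers, and such transcripts may not have been tested.

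TCONS_00214779 had the most target genes. Its interval was that of CENPH, a kinetochore protein gene, and of MRPS36. The authors' deposited table gave CENPH a p of 1 throughout and MRPS36 a smallest p of 0.104, for a transcript higher in T. CCNB1, which encodes cyclin B1, the partner of the mitotic kinase CDK1, began 3295 bp from the end of the interval. Its transcript TCONS_00221559 was lower in T and had a p of 0.00195 in the authors' deposited table. It was the 1 target transcript of the 32 with a p under 0.05, and the share over all 816 target transcripts is not given here. With Benjamini-Hochberg adjustment over all 816 target transcripts, computed here from the authors' deposited table, its adjusted p was 0.148 and did not pass. The 816 may include transcripts that were not tested, and the adjusted p depends on that number. SLC30A5, a zinc transporter gene 28080 bp away, had a smallest p of 0.139 by the authors' deposited table, for a transcript lower in T.

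The remaining targets belonged to 2 lncRNAs and lay outside their intervals. TCONS_00461234 ended 5067 bp from FNDC1, a gene for a fibronectin type III domain protein, whose transcript was lower in T with a p of 0.129 by the authors' deposited table. TCONS_00057616 lay 2900 bp from BRD3, which encodes a bromodomain protein that reads acetylated histones. It lay 67536 bp from WDR5, a gene for a subunit of histone methyltransferase complexes. The smallest p of BRD3 was 0.391 and that of WDR5 was 0.766 by the authors' deposited table. Over all 32 target transcripts, 26 had a p of 1, and the share over all 816 is not given here.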

How the data were processed

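The members and lists were chosen with earlier results of these data known. The submitters' processing notes name TopHat, TopHat2, Cufflinks and Cuffdiff, with no version or role. The genome build was not given in the sources used here, and positions are those deposited. The authors deposited CPC and CNCI scores for each transcript, per the file headers. Also deposited by the authors were the log2 fold change of T over C, its p-value and its q-value. Columns named for single libraries (4) and for the sets T and C (2) matched no sample label and, apart from a first look, were left out. Depth is therefore unknown.

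Class codes were stripped of quote marks, and locus length is end minus start. Distinct loci are distinct listed intervals. An infinite fold change was read as a set listed at 0. Gaps to targets were computed from deposited positions. Of 13 target gene identifiers, 9 were found in RefSeq (ARS1.2, used for names and gene types). Shares have 95% Wilson intervals, and an observed count of 0 was given the limit of 3 counts. No test across libraries was made. The span and merging steps were tested on simulated loci. LncRNAs were named by a written rule: the 10 longest, the listed ones, those nearest the threshold, the fullest loci and the extreme chromosomes. Identifiers with most transcripts were added after their values were seen. The software was Python 3.11.15 with numpy 2.4.6, scipy 1.17.1, pandas 2.3.3 and matplotlib 3.10.9.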

Additional observations from a re-analysis of the deposited data

How the results depend on the processing

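With a minimum length of 10 or 50 kb, 6822 or 2588 transcripts met the rule in place of 4734. Counted as distinct listed intervals there were 1802 loci, and merging overlapping intervals left that number unchanged. Loci of 1 gene identifier, an alternative chosen after seeing the data, left 759 transcripts. The share in the authors' list went from 0.296% to 0.616% (42 transcripts) with 10 kb, 0.0773% (2) with 50 kb, 0.721% (13 loci, against 0.347% of all merged loci) with merged loci, 0% with a q under 0.05, and 0.395% (3) at loci of 1 gene identifier. The minimum length therefore decides on which side of the background the share falls. The share listed lower in T went from 71.4% to 69.2% with finite changes (38.9% to 84.7% for shorter transcripts), and to 100% of 3 at loci of 1 gene identifier. A target was given for 28.6% with the distance classes of 1 and 10 kb and for 33.3% of those 3. The ratio of the highest to the lowest chromosome was 3.10 for the share, 2.06 per Mb and 3.52 with merged loci. Leaving out a library was not run, because the columns of single libraries match no sample label. The values for all merged loci and for finite changes of shorter transcripts were added after seeing the data. No paired analysis was possible because those columns carry no replicate number of the labels. The labels count 20 goats, 10 for each stage, so equal replicate numbers across stages need not mark pairs.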
